A study of Homo sapiens with 12 samples.

Results

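The genes of 10 cell adhesion molecules were followed on exon arrays of MDA-MB-231, a cell line from a triple-negative breast cancer with mesenchymal features. They were taken by name: the immunoglobulin-type molecules ALCAM, BCAM, CADM1, CADM4, CD58, ICAM1, L1CAM and MCAM, and 2 surface glycoproteins of other families, CD99 and CD44. All 10 had probes above background, out of 20708 genes with a probe and 18253 genes that could be tested. In this study the cells received a miR-145-5p precursor or its negative control at 5 nM, and Dicer-substrate siRNA against AGO2 or its negative control at 500 pM for 72 h. The 4 groups, each on 3 arrays from a biological triplicate, were control cells with both control oligonucleotides (cntrl), cells with miR-145 (mimic145), cells with silenced AGO2 (sirnaAGO2) and cells with both (sirnaAGO2+mimic145). The labels state both control oligonucleotides for cntrl only. All groups are cultures of 1 cell line treated by transient transfection, and arrays carrying the same replicate number were treated as a set. RNA was measured, not protein at the cell surface, and in bulk RNA fewer cells with a transcript and less transcript per cell cannot be told apart.

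Immunoglobulin-type adhesion molecules hold cells to each other and to matrix through extracellular domains that bind a copy of themselves, another family member, an integrin or a laminin. Many are cut from the surface by sheddases and are linked inside the cell to the actin cortex. In breast cancer cells they have been studied mainly for migration, invasion and contact with leukocytes and endothelium. The question posed by the 4 groups is whether miR-145-5p changes these transcripts, and whether it does so also where Ago2, the Argonaute protein that cuts target RNA, has been reduced.

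The miRNA given to the cells is shown because its seed, bases 2 to 8 in capitals, is the part that pairs with target transcripts. The sequence is that of RefSeq on GRCh38.p14, chromosome 5, plus strand, 149430661 to 149430683, and is 23 bases long. No target site in the 10 transcripts was searched for.

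hsa-miR-145-5p: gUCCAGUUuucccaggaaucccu

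Gene levels below are log2 normalised signals, each the mean over the probes of the gene that passed a filter on dim probes. Probes differ in brightness, so levels are compared between groups within a gene and never between genes. A change is called where limma's moderated test, with the replicate number as a block, gave a Benjamini-Hochberg adjusted p under 0.05 over all 18253 genes. The arrays had between 60.5% and 77.3% of spots well above background, and between any 2 arrays the correlation over genes was 0.946 or higher. AGO2 itself was at 9.21, 9.14 and 9.01 in cntrl and at 8.35, 8.44 and 8.42 in sirnaAGO2, a fall of 0.71 (SE 0.08, adjusted p = 0.00493). It was at 9.44, 9.36 and 9.39 in mimic145 and at 8.27, 8.35 and 8.41 in sirnaAGO2+mimic145. Silencing left 61.0% of the AGO2 signal without the mimic and 48.1% with it, and the silenced and unsilenced arrays did not overlap. The mimic raised AGO2 by 0.28 in control cells (adjusted p = 0.0298), a call kept in 15 of 29 alternative analyses. All 10 markers listed for MDA-MB-231, vimentin and CD44 among them, had probes above background. So did 8 of 10 markers of luminal or HER2 tumours, while PGR and FOXA1 had none. Probes above background on all 12 arrays were also found for 7 of 7 leukocyte, 4 of 7 fibroblast and 2 of 6 endothelial markers, so this measure does not tell cell types apart here.

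In control cells the mimic changed 3 of the 10 adhesion genes: L1CAM and CD99 fell and ICAM1 rose. Over all genes 22.6% were called in this comparison, 11.6% higher and 11% lower, so 3 of 10 is near the background. At an unadjusted p under 0.05 it was also 3 of 10, against 35.4% of all genes. The other 7 genes had estimates between -0.10 and 0.08, and their 95% intervals together ran from -0.28 to 0.35. Among the 10, L1CAM and CD99 were lower in mimic145 without overlap with cntrl and ICAM1 was higher without overlap, against 13.5% and 14.9% of all genes. In cells with silenced AGO2 the mimic changed 1 of the 10, L1CAM, which fell, where 7.28% of all genes were called, 4.25% higher and 3.03% lower. L1CAM was also lower without overlap there, as were 10.2% of all genes, and 3 of 10 had an unadjusted p under 0.05, against 28.8%. Silencing alone changed 1 of the 10, again a fall of L1CAM, where 2.57% of all genes were called, 0.888% higher and 1.69% lower. With silencing alone CD99 was the 1 gene of the 10 that was lower without overlap, against 10.6% of all genes, none was higher without overlap, against 8.48%, and 2 of 10 had an unadjusted p under 0.05, against 19%. Silencing in cells that had the mimic changed 0 of the 10 by limma, where 4.31% of all genes were called, 1.86% higher and 2.44% lower. Here 0 of the 10 fell under 0.05 before adjustment (21.5% of all genes did), and 0 were apart without overlap (6.22% of all genes were higher and 8.57% lower).

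**Figure D1:**
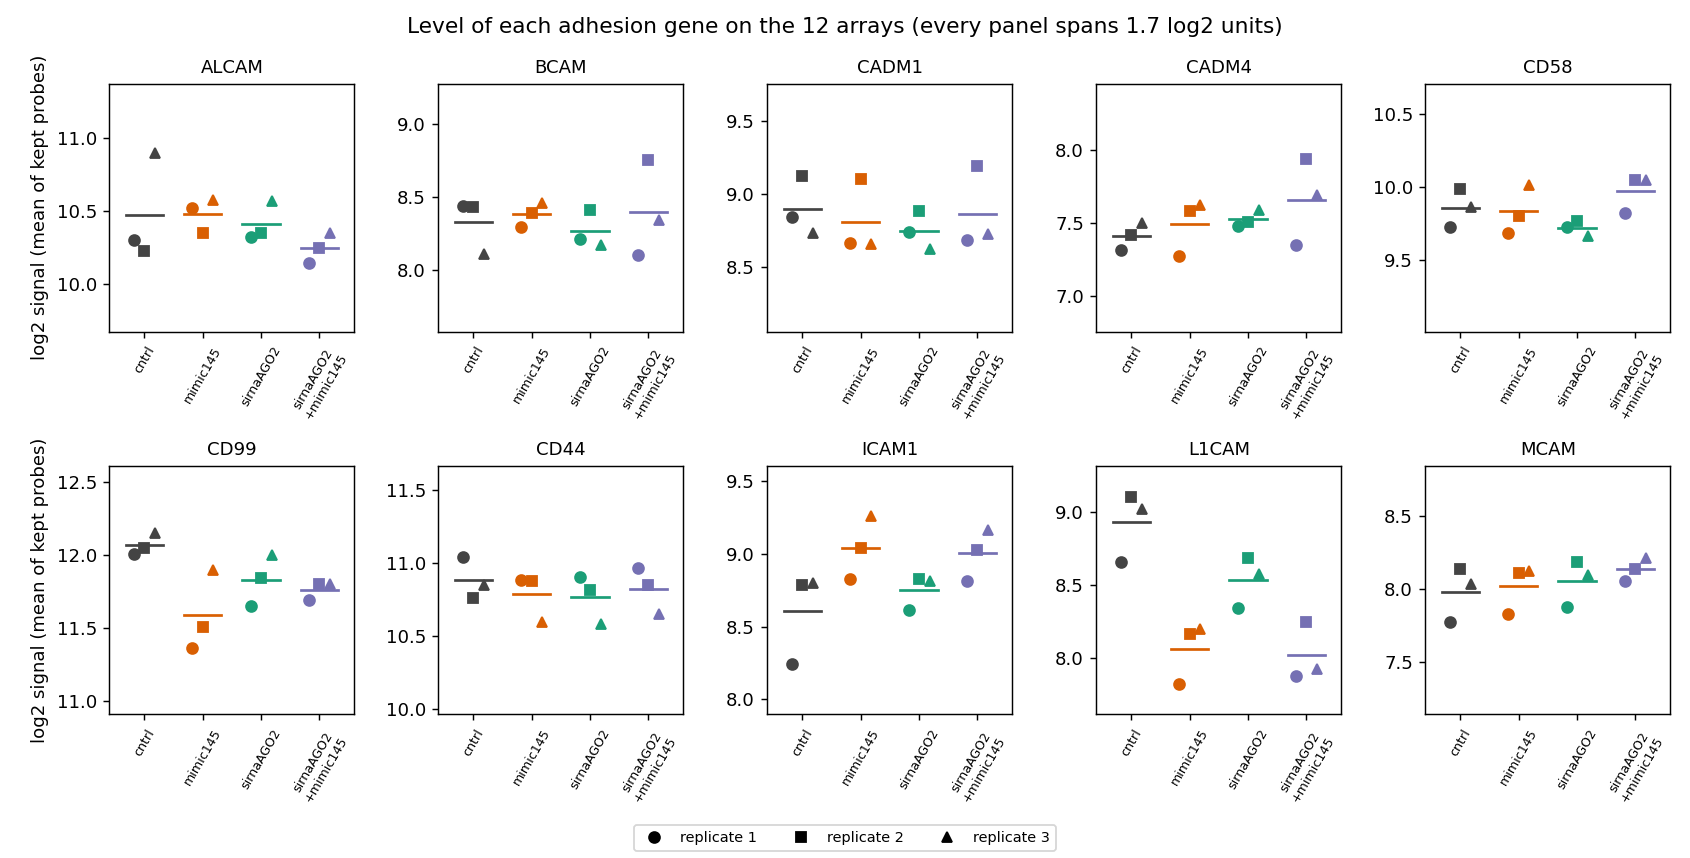
Log2 signal of each gene (vertical axis, mean of its kept probes) on the 12 arrays, by group (horizontal axis). Symbols mark the replicate numbers and lines the group means (n = 3); L1CAM in both mimic groups lies below cntrl, and most other genes overlap across the 4 groups.

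L1CAM, a neural adhesion molecule that binds itself and integrins, had the largest change among the 10 genes. Its signal was 8.66, 9.10 and 9.02 in cntrl and 7.82, 8.16 and 8.20 in mimic145. Every mimic145 array was below every cntrl array. The fall was 0.87 (SE 0.08, adjusted p = 0.000268), with -0.84, -0.94 and -0.82 in the 3 replicate pairs, and left 54.9% of the control signal (95% interval 48.4% to 62.2%). This call was kept in 28 of 29 alternative analyses. The exception was the paired test that the methods name, with an adjusted p of 0.147, which called 0 of 18253 genes after adjustment and 3867 at an unadjusted p of at most 0.05.

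With AGO2 silenced, L1CAM was at 8.34, 8.68 and 8.57 without the mimic and at 7.88, 8.25 and 7.93 with it. Those groups did not overlap either. The fall was 0.51 (SE 0.08, adjusted p = 0.0142), present in all 3 pairs, and left 70.0% of the signal. This call was lost in 10 of 29 alternatives, and without the replicate block the adjusted p was 0.180. The adjusted p was 0.0629, 0.157 and 0.170 without replicates 1, 2 and 3, and it was 0.0763, 0.0715 and 0.0570 without the single arrays sirnaAGO2 replicate 2, sirnaAGO2 replicate 3 and sirnaAGO2+mimic145 replicate 3.

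Silencing alone gave 0.40 less L1CAM than cntrl (SE 0.08, adjusted p = 0.0413). The fall was present in all 3 pairs, although the groups overlapped because cntrl replicate 1 was low. The call stood in 11 of 29 alternatives. Without the block the adjusted p was 0.442, and with the slide as a random block it was 0.368. No slide held both a silenced and an unsilenced array, so silencing was always compared across slides. Leaving out any 1 replicate number ended the call (adjusted p from 0.211 to 0.386), and so did leaving out any 1 array of cntrl or sirnaAGO2 (0.111 to 0.168), mimic145 replicate 1 or 2 (0.0657 and 0.0561) or sirnaAGO2+mimic145 replicate 1 (0.0513).

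In order of level, L1CAM was highest in cntrl, then in sirnaAGO2, then in mimic145 and sirnaAGO2+mimic145, whose means of 8.06 ± 0.21 and 8.02 ± 0.20 (SD, n = 3) differed by less than the spread between arrays. The mimic's effect was 0.35 less negative in silenced than in control cells (SE 0.11, 95% interval 0.09 to 0.61, the same sign in 3 of 3 pairs), which did not pass over all genes (adjusted p = 0.191). An exact two-sided permutation test of 3 arrays against 3 cannot go below 0.1, and L1CAM was at 0.1 in both mimic comparisons.

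**Figure D2:**
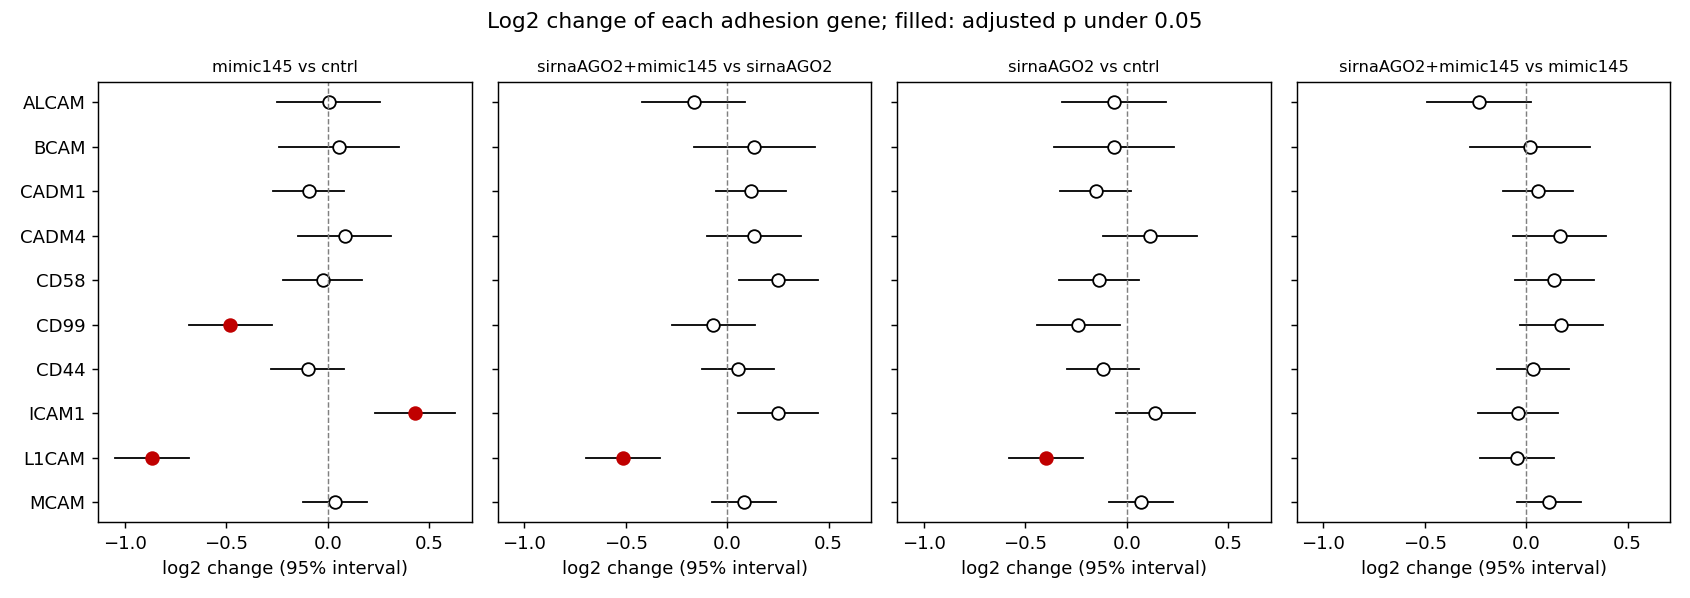
Log2 change of the 10 genes (points) with 95% intervals (lines) in 4 comparisons, 1 panel each; filled points passed an adjusted p of 0.05. L1CAM is filled in 3 panels, CD99 and ICAM1 only in the first, and no point is filled in the last.

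The exon array carries many probes for a gene, and L1CAM had 28, all kept. With the mimic in control cells 27 of 28 were lower, 25 of them in all 3 pairs, and the changes ran from -1.57 to 0.10 with a median of -0.93. In silenced cells 25 of 28 were lower, with a median of -0.54. With silencing alone 28 of 28 were lower, with a median of -0.44 and a narrower range, from -0.58 to -0.02. The sizes of the falls were unequal between probes. Probes 21 and 22 are examples picked after the values were seen. Probe 21 went from 11.79, 12.30 and 12.25 in cntrl to 10.01, 10.90 and 11.17 in mimic145. Neither test described below set probe 21 apart from the other probes with the mimic in control cells. Probe 22 went only from 13.11, 13.17 and 13.45 to 12.94, 13.08 and 13.12.

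There were 2 tests for unequal probes. One was limma's diffSplice F test, which shares 1 spread over a gene's probes and called too many genes on simulated probes of unequal spread. The other, added after seeing the data, compares each probe with the mean of the gene's other probes on that probe's own spread. For the mimic in control cells both called L1CAM (adjusted p = 1.63e-09 and 0.0151), where they called 14.3% and 5.55% of 15418 genes. In silenced cells the F test called it (adjusted p = 6.88e-05, 20% of genes called), and the test on own spread did not (adjusted p = 0.0714). On own spread, probes 6, 22 and 26 fell less than the mean of the others in control cells and probe 25 fell more, while probe 3, which also stood apart, was higher by 0.10. Probe 3 was dim, between 5.88 and 6.01 in cntrl. Probes 6, 22 and 26 were above background on all 12 arrays. The files give no exon position for a probe, so these probes cannot be placed along the gene.

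**Figure D3:**
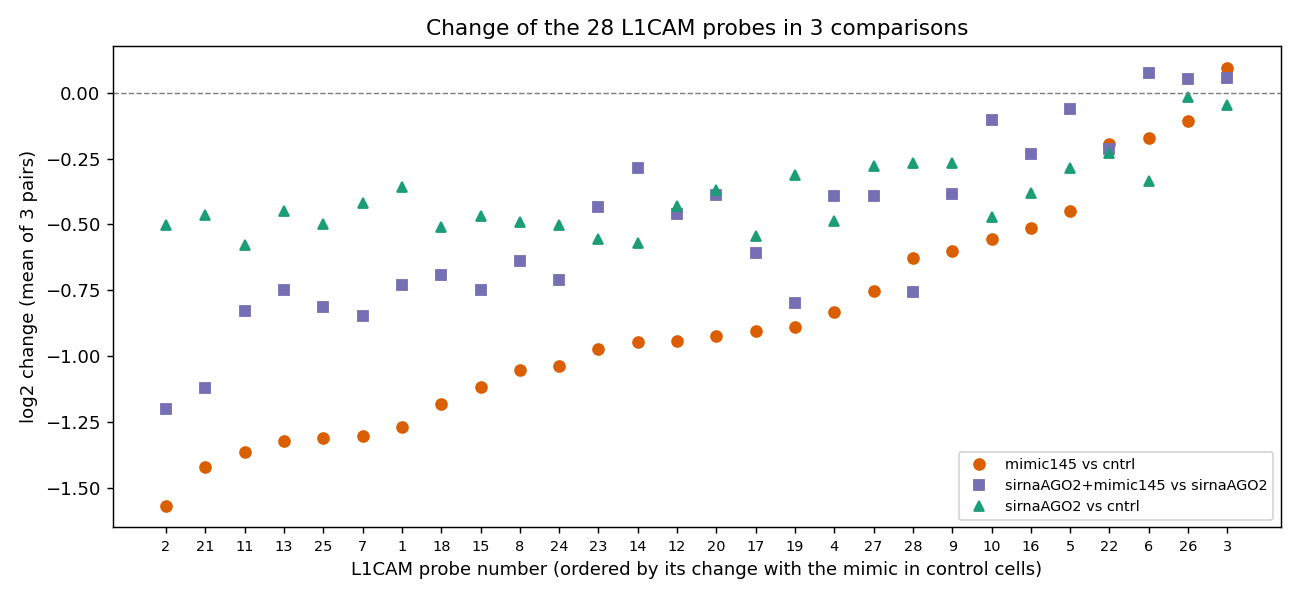
Log2 change (vertical axis, mean of 3 pairs) of each of the 28 L1CAM probes (horizontal axis, ordered by the change with the mimic in control cells) in 3 comparisons. Circles run from -1.57 to 0.10, while triangles, silencing alone, stay between -0.58 and -0.02.

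CD99, a small glycoprotein that binds itself and takes part in leukocyte passage through endothelium, was called lower with the mimic, and the call was lost without 1 of its 13 probes. The gene's signal was 12.01, 12.05 and 12.15 in cntrl and 11.36, 11.51 and 11.89 in mimic145, without overlap. The fall was 0.48 (SE 0.09, adjusted p = 0.00572), with -0.64, -0.54 and -0.26 in the pairs. Probe 8, printed on the array as a single spot, was at 11.66, 11.84 and 11.89 in cntrl and at 6.13, 6.39 and 10.69 in mimic145, where it was not well above background on replicates 1 and 2. It was also low on other arrays, at 8.51 in sirnaAGO2 replicate 1 and 8.90 in sirnaAGO2+mimic145 replicate 1. The other 12 probes of CD99 had no array on which they stood so low. Without probe 8 the mean fall was 0.18 and was no longer called (adjusted p = 0.0820), and the median over probes gave 0.19 (adjusted p = 0.275). The direction stayed: 12 of the 13 probes were lower, 11 of them in all 3 pairs, and probe 1 was higher by 0.13. On its own spread probe 1 stood apart from the mean of the others (adjusted p = 0.0432), a mean that holds probe 8. Leaving out replicate 1 or 2 also ended the call (adjusted p = 0.103 and 0.0687).

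**Figure D4:**
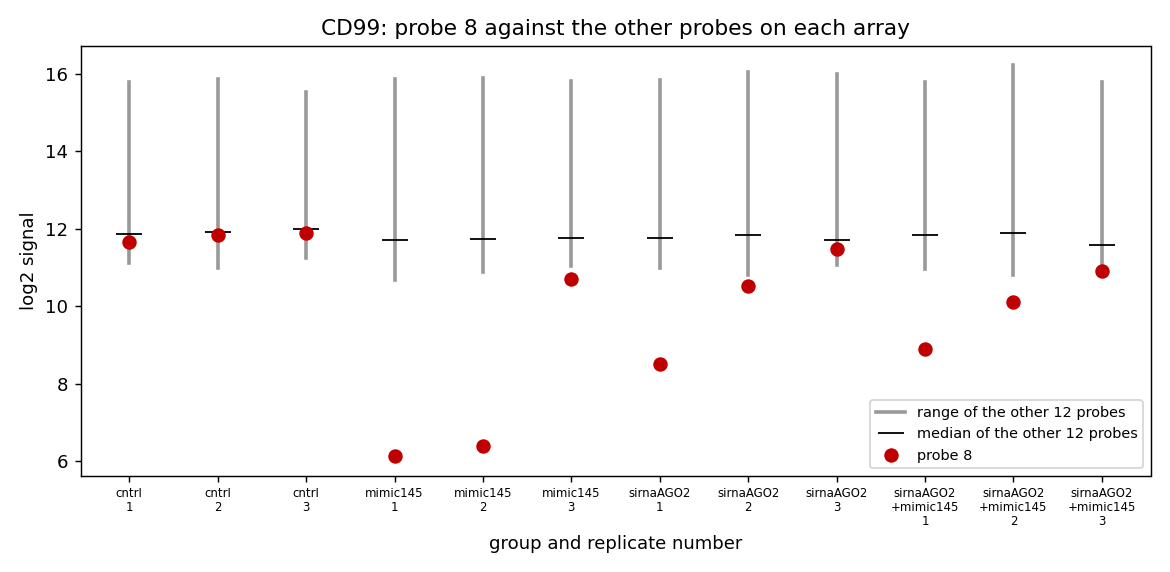
Log2 signal (vertical axis) of CD99 probe 8 (circles) on the 12 arrays, beside the range (bars) and median (dashes) of the other 12 probes. Probe 8 lies among the others in cntrl and at 6.13 and 6.39 in mimic145 replicates 1 and 2, far below their range.

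In silenced cells CD99 was at 11.65, 11.84 and 11.997 without the mimic and at 11.69, 11.80 and 11.80 with it, a difference of -0.07 (adjusted p = 0.651) with groups that overlapped. Silencing alone gave -0.24 without overlap (adjusted p = 0.196), or -0.12 without probe 8. The mimic's effect on CD99 was 0.41 higher in silenced than in control cells (SE 0.13, adjusted p = 0.177), and 0.13 (adjusted p = 0.516) without probe 8. diffSplice called CD99's probes unequal in control cells with the mimic (adjusted p = 3.62e-14), with silencing in mimic-treated cells (0.000181, where 3.77% of genes were called) and for the difference of mimic effects (1.57e-05, where 0.318% were called). With silencing alone it called 0 of the 10 genes and 0.383% of all genes, and CD99 was the 1 member with an unadjusted p under 0.05. On each probe's own spread none of these passed (adjusted p = 0.0551, 0.352 and 0.743).

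ICAM1, the ligand of the leukocyte integrin LFA-1 and a gene induced through NF-kappaB, rose with the mimic in control cells. It was at 8.24, 8.78 and 8.80 in cntrl and at 8.83, 9.04 and 9.26 in mimic145. The groups did not overlap, though the lowest mimic145 array was close to the highest cntrl array. The rise was 0.43 (SE 0.09, adjusted p = 0.00790), with 0.58, 0.26 and 0.45 in the pairs, or 135% of the control signal (95% interval 118% to 155%). Every one of its 7 kept probes was higher in all 3 pairs, by 0.25 to 0.56. The call stood in 23 of 29 alternatives. It was lost without the replicate block (adjusted p = 0.129) and without replicate 1 or 3 (0.0948 and 0.0769).

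In silenced cells ICAM1 was at 8.61, 8.83 and 8.81 without and at 8.81, 9.03 and 9.16 with the mimic. The difference of 0.25 (SE 0.09) did not pass (adjusted p = 0.102), and 7 of 7 probes were higher. The effect in silenced cells was 0.18 smaller than in control cells (95% interval of the difference -0.46 to 0.10, adjusted p = 0.473). Silencing alone gave 0.14 (adjusted p = 0.415).

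CD44, the receptor for hyaluronan whose transcripts differ by a set of variable exons, stayed close to its control level. Its signal was 11.05, 10.76 and 10.85 in cntrl, 10.88, 10.88 and 10.60 in mimic145, 10.90, 10.82 and 10.59 in sirnaAGO2, and 10.97, 10.85 and 10.65 in sirnaAGO2+mimic145. All 4 groups overlapped. The mimic's effect was -0.10 in control cells (95% interval -0.28 to 0.08) and 0.05 in silenced cells (-0.13 to 0.23). Of its 18 probes 14 were lower and 4 higher with the mimic in control cells. Probes 9 and 10, picked after their values were seen, were higher by 0.24 and 0.27, while probe 1 was lower by 0.41. Neither test called the probes unequal (adjusted p = 0.114 by diffSplice and 0.0847 on own spread).

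CD58, the ligand of CD2 on T cells, was at 9.73, 9.77 and 9.66 in sirnaAGO2 and at 9.82, 10.05 and 10.04 in sirnaAGO2+mimic145. These groups did not overlap, as was so for 13.9% of all genes in the higher direction. The difference of 0.25 (SE 0.09) was present in 3 of 3 pairs and in 6 of 6 probes, and did not pass over all genes (adjusted p = 0.100). In control cells the mimic gave -0.02 (95% interval -0.22 to 0.17). The difference between the 2 effects, 0.28, had an adjusted p of 0.299.

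CADM1 and CADM4 are cell adhesion molecules that bind their own kind and relatives at cell contacts. CADM1 rested on only 2 of 11 probes. It was at 8.85, 9.13 and 8.73 in cntrl and at 8.66, 9.10 and 8.66 in mimic145, overlapping groups with a difference of -0.09 (95% interval -0.27 to 0.08). CADM4 rested on 6 of 9 probes, of which 1 was above background on all 12 arrays. It was at 7.31, 7.42 and 7.50 in cntrl and at 7.28, 7.59 and 7.62 in mimic145, a difference of 0.08 (95% interval -0.15 to 0.31). In silenced cells the mimic gave 0.12 for CADM1 and 0.13 for CADM4, and neither passed (adjusted p = 0.339 and 0.420).

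ALCAM, which binds CD6 and itself, was at 10.30, 10.22 and 10.90 in cntrl and at 10.52, 10.35 and 10.58 in mimic145, with a difference of 0.00 (95% interval -0.25 to 0.26). Its lowest group was sirnaAGO2+mimic145, at 10.15, 10.25 and 10.35, which was 0.23 below mimic145 (adjusted p = 0.273) and overlapped it. ALCAM probe 1 was at 7.50 on sirnaAGO2+mimic145 replicate 1 and between 11.13 and 11.88 on the other arrays.

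MCAM, a receptor of endothelial and melanoma cells, was at 7.77, 8.14 and 8.04 in cntrl and at 7.83, 8.11 and 8.12 in mimic145, a difference of 0.04 (95% interval -0.12 to 0.20). diffSplice called its probes unequal in this comparison (adjusted p = 0.00610), and on own spread they did not pass (0.405). The call came from probe 3, whose 2 spots on mimic145 replicate 1 had processed signals of 59.0 and 7971. Without that probe MCAM differed by 0.16 (adjusted p = 0.177). It was called higher, by 0.17 in control cells (adjusted p = 0.0469) and by 0.28 in silenced cells (0.0172), where only probes above background on all 12 arrays were used, and by 0.26 in control cells (0.0496) with the median over probes. BCAM, the Lutheran blood group molecule that binds laminin with an alpha 5 chain, was at 8.44, 8.43 and 8.11 in cntrl and at 8.29, 8.39 and 8.46 in mimic145, a difference of 0.05 (95% interval -0.24 to 0.35).

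**Figure D5:**
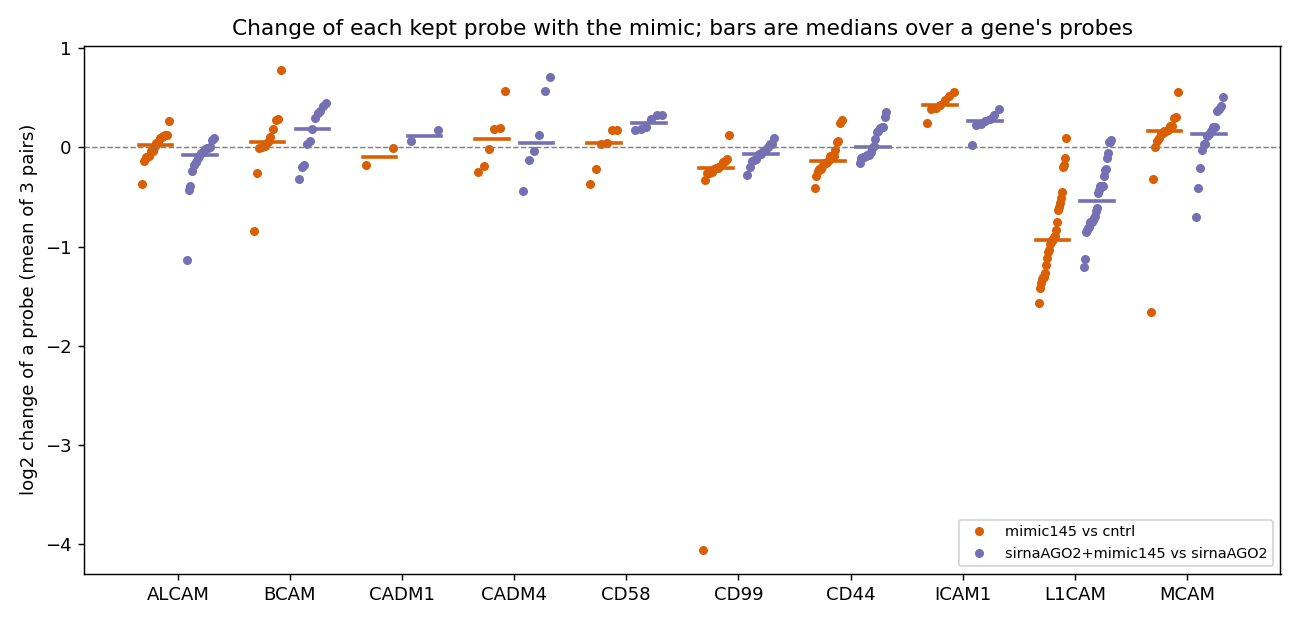
Log2 change with the mimic (vertical axis, mean of 3 pairs) of every kept probe of the 10 genes (horizontal axis), in control cells (orange) and in silenced cells (purple), with medians as bars. Nearly all L1CAM probes lie below 0 and all ICAM1 probes above 0, and CD99 has 1 probe at -4.05 far from the rest.

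None of the 10 genes differed between silenced and control cells in its response to the mimic at the adjusted threshold of limma. Before adjustment 2 of the 10, CD99 and L1CAM, were under 0.05, against 16.8% of all genes. In this comparison 2 of 18253 genes were called, or 0.011%, with 0.00548% higher and 0.00548% lower.

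Genes that act with the adhesion molecules were counted in lists, without a test of the lists. Of 83 tested other immunoglobulin-type adhesion genes, 7 rose and 6 fell with the mimic in control cells (15.7%, against 22.6% of all genes). NECTIN1 rose by 0.80 (adjusted p = 0.00134) and NECTIN2 by 0.49 (0.00227), both nectins of cell junctions. The receptor phosphatase PTPRK fell by 0.74 (0.00128) and AMIGO2 by 0.64 (0.00182). CHL1, the close homolog of L1CAM, rose by 0.49 in control cells (0.0152) and by 0.50 in silenced cells (0.0373). These calls were kept in 19 and 11 of 28 alternatives, and its estimate in control cells was -0.00351 in 1 of 28 alternatives. No CHL1 probe was above background on all 12 arrays, so CHL1 dropped out of the alternative with only such probes. The rise of CHL1 in control cells was 0.24 with normexp and 0.66 with 75th percentile scaling. In silenced cells these were 0.29 and 0.83. In silenced cells 5 of the 83 rose and 1 fell (7.23%, against 7.28%).

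The list for the CD99 family held 2 falls among 5 genes (40%, against 22.6% of all genes called and 11% called lower). They were CD99L2 by 0.43 (adjusted p = 0.00325) and the pseudogene CD99P1 by 0.43 (0.0234). This list also holds PILRA, counted among the ligands and receptors too, which had 0.26 and did not pass (0.0819). CD99L2, a relative of CD99 with a like role in leukocyte passage, was at 8.79, 8.67 and 8.86 in cntrl and at 8.33, 8.29 and 8.40 in mimic145, without overlap. This call was kept in 25 of 29 alternatives, and with the authors' log2 table the fall was 0.27 and did not pass (adjusted p = 0.0815). In silenced cells CD99L2 fell by 0.29 (0.0442), a call kept in 8 of 29 alternatives. CD99P1 is a near copy of CD99, so its signal may be shared with it. Its call was kept in 16 of 29 alternatives, its adjusted p was 0.0663 with the authors' log2 table, and its estimate was positive (0.04) in 1 alternative.

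A list of 13 tested shedding genes held sheddases, which release L1CAM, CD44 and others from the surface, and subunits of gamma-secretase, which cuts the membrane stub that shedding leaves. Of these 4 fell and 0 rose in control cells (30.8%, against 22.6% of all genes called and 11% called lower). The gamma-secretase subunit APH1A fell by 1.23 (adjusted p = 3.25e-05), the subunit NCSTN by 0.64 (0.00113) and ADAM10, a main sheddase of L1CAM and CD44, by 0.61 (0.00220). In silenced cells APH1A fell by 0.72 (0.00208) and ADAM10 by 0.45 (0.0312), 2 of 13 genes in all (15.4%, against 7.28% of all genes). The ADAM10 call in silenced cells was kept in 13 of 29 alternatives. Among the linkers and scaffolds under the membrane, 4 of 20 rose and 5 fell in control cells (45%, against 22.6% of all genes). CTNNB1, the catenin of adherens junctions, rose by 0.97 (0.000420) and RDX, radixin, by 0.60 (0.000772), while the spectrin SPTBN1 fell by 0.82 (0.000669). Ezrin and moesin, the relatives of radixin, had estimates of -0.09 and -0.25 that did not pass.

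Of 36 tested ligands and receptors of the 10 molecules, 5 rose and 5 fell in control cells (27.8%, against 22.6% of all genes). LGALS1 rose by 0.59 (adjusted p = 0.00179) and CEMIP2, a surface protein linked to hyaluronan turnover, by 0.64 (0.00772), and the integrin chain ITGB3, a partner of L1CAM, fell by 0.55 (0.0223), a call kept in 16 of 29 alternatives. ITGAL and ITGB2, the chains of LFA-1, had -0.08 and -0.18 and did not pass. The hyaluronan synthase HAS2 had 0.29 on its 1 kept probe and did not pass either. CD2 had no level that could be tested. In silenced cells 1 of the 36 rose and 3 fell (11.1%, against 7.28% of all genes). The receptor KDR rose by 0.66 (0.00688), and ITGB1, LAMC1 and SERPINA3 fell by 0.35, 0.35 and 0.64. The calls of ITGB1, LAMC1 and SERPINA3 were kept in 9, 16 and 8 of 29 alternatives, and SERPINA3 was at 0.46 in 1 alternative. KDR was kept in 23 of 28. It was dim, with a mean of 6.04 in cntrl, and rested on 3 of 31 probes, none above background on all 12 arrays. Its change was 0.34 with normexp and 0.96 with 75th percentile scaling. With the mimic in control cells KDR was also called higher and LAMC1 lower, calls kept in 6 of 28 and 17 of 29 alternatives. ITGB1 and SERPINA3 were not called there.

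Of 25 NF-kappaB genes and targets, chosen because the pathway induces ICAM1, 6 rose and 5 fell in control cells (44%, against 22.6% of all genes). RELA rose by 0.53 (adjusted p = 0.000848), RELB by 0.51 (0.0110) and the inhibitor NFKBIB by 0.62 (0.00563). The targets CSF2 and CXCL1 fell by 1.03 (0.000178) and 0.68 (0.00932). In silenced cells 1 of 25 changed (4%, against 7.28% of all genes), CSF2, which fell by 0.55 (0.0142). Of 16 regulators of CD44 exon choice, 3 rose and none fell in control cells (18.8%, against 22.6% of all genes). They were MBNL1, up by 0.77 (0.000827), QKI by 0.52 (0.00364) and HNRNPM by 0.41 (0.0150). In silenced cells limma called 0 of the 16, where 7.28% of all genes were called. Before adjustment 4 of the 16 were under 0.05, against 28.8% of all genes.

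With silencing alone, 3 of the 25 NF-kappaB genes fell and 0 rose (12%, against 2.57% of all genes), among them BIRC3 by 0.46 (adjusted p = 0.0228) and IRF1 by 0.32 (0.0441). These calls were kept in 15 and 9 of 29 alternatives. Of the 36 ligands and receptors 1 rose and 1 fell (5.56%), and of the 83 immunoglobulin-type genes 1 fell (1.2%). The immunoglobulin-type gene was PECAM1, down by 0.68 (0.0312), which rested on 1 dim kept probe. Its call was kept in 12 of 28 alternatives, and it was at -0.31 with normexp (0.128) and had an adjusted p of 0.0664 with the authors' log2 table. Limma called 0 of the 5, 20 and 16 genes of the CD99 family list, linkers and exon choice regulators. Of these 2, 5 and 3 were under 0.05 before adjustment, against 19% of all genes.

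With silencing in mimic-treated cells, APH1A rose by 0.44 (adjusted p = 0.0138) and NCSTN by 0.38 (0.0401), calls kept in 18 and 9 of 29 alternatives. Of the 20 linkers 2 rose (10%, against 4.31% of all genes), among them SPTBN1 by 0.65 (0.0107). Of the 36 ligands and receptors 2 rose and 1 fell (8.33%), of the 83 immunoglobulin-type genes 2 rose and 1 fell (3.61%), and of the 25 NF-kappaB genes 1, CSF2, rose by 0.70 (0.00680), or 4%. Limma called 0 of the 5 genes of the CD99 family list and 0 of the 16 exon choice regulators. Of these 0 and 3 were under 0.05 before adjustment, against 21.5% of all genes.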

How the data were processed

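RNA from 12 cultures was labelled with Cy3 and hybridised to 1-colour Agilent exon arrays, 2 on a slide. The deposited scanner files hold signal intensity per spot from Agilent Feature Extraction 10.7.3.1. The authors set values under 1 to 1, quantile normalised and took log2, and their deposited log2 table served as an alternative. The same steps were applied here to the processed intensity without control and outlier spots, spots of a probe were averaged, and probes were kept where well above background on all 3 arrays of a group. A probe's gene came from its transcript accession through RefSeq (GRCh38.p14, 89.9% of 233164 probes). The array design uses another build, so no gene coordinates are given. Other deposited columns (spot flags, names) are not measurements.

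Gene values are means over kept probes. The 4 groups were fitted with limma 3.58.1 in R 4.3.3 on all 12 arrays, the replicate number as a block. Same-numbered arrays of different groups deviated together (correlations 0.139 to 0.577 over 18 pairs), and the methods used a paired test. Arrays of different number and group had correlations from -0.495 to 0.201 over 36 pairs, so the ranges overlapped. Some same-numbered pairs also shared a slide. On every slide the mimic array had the second position, so mimic and position cannot be told apart. The probe and gene tests were checked on simulated data. There, diffSplice overcalled genes whose probes differ in spread, and a test on each probe's own spread (Simes p per gene) was added. The 12 arrays limit precision (median SE of a log2 difference 0.099).

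Genes named were the 10 members, AGO2, up to 3 rises and 3 falls per list and comparison, and chosen partners. Members and lists were chosen with earlier results of these data known. Alternatives covered scaling, background, filter, probe summary, block, samples, test and threshold. Results for some of the listed genes are not reported here.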

Additional observations from a re-analysis of the deposited data

Results flagged for a closer look

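The response of CD99 probe 8 to the mimic, taken against the other CD99 probes, was 3.73 higher in silenced than in control cells on the log2 scale. diffSplice put the gene at an adjusted p of 1.57e-05, and on that probe's own spread the probe's adjusted p was 0.820. The probe is a single spot, and it was not well above background on mimic145 replicates 1 and 2. Whether the spot or the transcript differed was not tested.

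For CADM1, silencing gave a negative change in 3 of 3 pairs without the mimic and a positive one in 3 of 3 pairs with it, a difference of 0.21 (limma adjusted p = 0.360). For ICAM1 the signs were the other way, positive without the mimic and negative with it, a difference of -0.18 (adjusted p = 0.473). Neither difference passed the test. The 2 kept CADM1 probes went opposite ways with silencing in mimic-treated cells. They were at -0.11 and 0.22, each with the same sign in all 3 pairs.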

How the results depend on the processing

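Over 29 alternatives no called change of the 10 members reversed. Among the other genes named, the estimates of CD99P1 and CHL1 with the mimic in control cells and of SERPINA3 in silenced cells had the other sign in 1 alternative each. Of 1440 member values compared, 1389 kept their side of the threshold, 44 lost the call and 7 gained one. Most of the 1440 were uncalled from the start, and all 44 losses fell on the calls of L1CAM, CD99 and ICAM1. With the mimic in control cells these calls were kept in 28, 20 and 23 of 29 alternatives. The L1CAM call was kept in 19 of 29 with the mimic in silenced cells and in 11 of 29 with silencing alone. Of the values that were not called, 53 had the other sign.

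The 3 members called with the mimic in control cells became 1 using only the arrays of the groups compared, 0 with the methods' t-test after adjustment, 1 with a change over 0.5 also required, and 1 to 3 without single replicates or arrays. The 1 called with the mimic in silenced cells became 2 with only probes above background on all 12 arrays, 0 with the median over probes, 0 without the replicate block, 0 using only the arrays compared, 0 with the adjusted t-test, 4 with the t-test at an unadjusted p of 0.05, and 0 to 1 without single replicates or arrays. The 1 called with silencing alone became 0 with the median, without the block, with the slide as a random block, using only the arrays compared, with the adjusted t-test and with the 0.5 threshold, 2 with the unadjusted t-test, and 0 to 1 without single replicates or arrays.

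For unequal probes, the 3 members in control cells became 4 with no filter on dim probes, which added CADM1 (adjusted p = 0.000685), 1 with probes above background on all 12 arrays, 1 on each probe's own spread and 1 without the CD99 and MCAM probes that stand apart. They were 2 to 3 without a replicate number. In silenced cells the 1 became 2 with the 75th percentile scaling, 0 without the block, 0 on own spread, and 0 to 2 without a replicate. With silencing in mimic-treated cells, and for the difference of mimic effects, the 1 became 0 with probes above background on all arrays, without the block, on own spread, and without the probes that stand apart, and 0 to 1 without a replicate. With silencing alone the 0 became 1 without replicate 3. Apart from the alternatives' own construction the cause was not tested.

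The replicate block mattered. Without it the members called were 2, 0 and 0 in the mimic and silencing comparisons that had calls, and 1995 of 18253 genes were called with the mimic in control cells, against 4118. Dim probes limit CADM1, CADM4 and BCAM, with 2, 1 and 7 probes above background on all arrays.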
